A study of Homo sapiens with 6 samples.

Results

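The genes described here are the replication-dependent histone genes, which encode the linker histone H1 and the core histones H2A, H2B, H3 and H4. They were taken as all protein-coding genes with a symbol from H1-1 to H1-6, or with a symbol made of H2AC, H2BC, H3C or H4C and a number. This gave 64 of the 61015 annotated genes with a transcript on file, of which 6 encode H1, 16 encode H2A, 16 encode H2B, 13 encode H3 and 13 encode H4. The cells were MDA-MB-231, a mesenchymal human triple-negative breast cancer line, in a derivative resistant to paclitaxel (PTX), a drug that stabilises microtubules. Resistant cells were stained with ALDEFLUOR, a fluorescent substrate of aldehyde dehydrogenase (ALDH), and sorted by flow cytometry, with dead cells gated out. The ALDH+ cells are called breast cancer stem cells (BCSC) and the ALDH- cells non-BCSC, with 3 libraries of each. Both groups therefore share the PTX resistance, and no PTX-sensitive cells were compared. Nothing states that the 3 libraries of a group came from separate cultures or sorts, so the p-values measure the spread between these libraries, which may be technical.

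Each nucleosome wraps DNA around a core of paired H2A, H2B, H3 and H4, and H1 binds where the DNA enters and leaves. Replication-dependent histone genes lie in clusters, mostly lack introns and are transcribed in S phase, when newly copied DNA has to be packed. Their mRNAs end in a conserved stem-loop in place of a poly(A) tail. The stem-loop-binding protein SLBP holds that hairpin during 3′ end cleavage, translation and the rapid decay of the mRNA when DNA synthesis stops. The libraries were made from total RNA with random primers, a priming that does not need a poly(A) tail. The paper's RNA sequencing methods name neither a selection of poly(A) RNA nor a removal of ribosomal RNA. How fully mRNA without a poly(A) tail was kept is therefore not known from them. In RNA from a sorted population, fewer cells in S phase and less histone mRNA per S phase cell cannot be told apart.

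The stem-loop, the feature that sets these mRNAs apart, was read from the transcript models. A hairpin of 16 bases, with 6 paired bases in its stem and 4 in its loop, was found in 54 of the 64 histone genes, in 53 of them within the last 150 bases of a transcript. Among 19547 other protein-coding genes, 9 (0.0460%) held such a hairpin in the last 150 bases. It occurred in 3 spellings, of which the first below was in 38 genes, the second in 8 and the third in 8, all of the last encoding H4. H3C2 and H3C8, which encode H3, are shown for the first 2 spellings because they had the smallest p-values of all histone genes, and H4C4 for the third. The printed stretches, which hold the hairpin and the 5 bases on either side of it, lie at chr6:26031820-26031845 for H3C2, chr6:26271146-26271171 for H3C8 and chr6:26188938-26188963 for H4C4, all in GRCh37 on the minus strand and near the 3′ end of the only exon. Sequences are written 5′ to 3′ as DNA, and capitals mark the hairpin.
H3C2: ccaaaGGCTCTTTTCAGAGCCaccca
H3C8: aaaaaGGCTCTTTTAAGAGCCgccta
H4C4: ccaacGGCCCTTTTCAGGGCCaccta

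No exact hairpin of this form was found in H2AC11, H2AC15, H2AC20, H2BC10, H3C6, H4C9, H4C12, H4C13, H4C14 and H4C15. Of these, 6 were tested and H2AC11 was called higher in BCSC. In H2BC21 the hairpin was followed by 1729 further bases of the annotated transcript, so that model runs past the usual end of a histone mRNA.

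The promoters of the classes differ in their known elements, and 59 of the 64 genes had a promoter in the RefSeq table (GRCh38.p14, 250 bases before to 50 after the start). For 4 genes with several windows the first was read, except that H3C4, whose first window is also that of H2AC7, was read from its other window. Both strands were searched for the octamer ATTTGCAT, which the factor POU2F1 binds, and for the box known as CCAAT. The same was done for TATAAA as the TATA box, for the H1 promoter element AAACACA, and for the H4 promoter element GGTCCG. The octamer was in 11 of 15 H2A and 12 of 16 H2B promoters and in 0 of the 6 H1, 11 H3 and 11 H4 promoters, against 1.77% of all 35116 promoters. H2A and H2B genes that start head to head share part of their windows, so 1 octamer can count for both. CCAAT was in all 6 H1, 15 H2A, 16 H2B and 11 H3 promoters read and in 2 of 11 H4 promoters, against 34.6% of all. AAACACA was in 6 of 6 H1 promoters and in 5.64% of all, and GGTCCG was in 10 of 11 H4 promoters and in 11.3% of all. To show how classes differ, the 150 bases before the start are printed for 1 gene each of H1, H2B, H3 and H4, with these letters in capitals. H1-2, H3C8 and H2BC21 were called higher in BCSC, and H4C4 was not. The stretches are chr6:26056471-26056620 for H1-2, chr1:149886683-149886832 for H2BC21, chr6:26271414-26271563 for H3C8 and chr6:26189113-26189262 for H4C4, all on the minus strand. In H2BC21 a GGTCCG and a CCAAT overlap.
H1-2: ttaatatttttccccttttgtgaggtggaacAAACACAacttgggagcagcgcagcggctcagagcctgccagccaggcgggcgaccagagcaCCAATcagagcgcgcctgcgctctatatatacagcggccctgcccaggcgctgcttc
H2BC21: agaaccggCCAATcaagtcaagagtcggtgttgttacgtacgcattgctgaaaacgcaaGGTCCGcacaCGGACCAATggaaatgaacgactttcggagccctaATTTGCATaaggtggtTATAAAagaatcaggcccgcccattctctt
H3C8: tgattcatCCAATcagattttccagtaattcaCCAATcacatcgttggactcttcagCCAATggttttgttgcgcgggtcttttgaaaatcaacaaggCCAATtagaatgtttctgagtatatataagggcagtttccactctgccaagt
H4C4: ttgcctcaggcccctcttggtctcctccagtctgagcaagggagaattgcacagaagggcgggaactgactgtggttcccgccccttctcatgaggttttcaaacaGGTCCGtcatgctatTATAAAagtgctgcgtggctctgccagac

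Levels are CPM, read counts rescaled so that every library has the same total, with the TMM method setting the totals, and a fold change is given as its log2, BCSC over non-BCSC, with its standard error (SE). A gene was called changed at an edgeR adjusted p under 0.05 with at least a 2-fold change. The BCSC libraries held 15925943 to 21215352 counts and the non-BCSC libraries 9898588 to 12263667, so a count of 0 allows up to 0.141 to 0.303 CPM (3 counts), which covers counting error only. The line markers VIM and CD44 were at means of 3418 and 2644 CPM in BCSC and 2793 and 1456 CPM in non-BCSC, while KRT8 and KRT18, on the same list, were low, at 6.59 and 1.85 CPM and at 58.6 and 10.99 CPM. The 8 markers of the line summed to 6793 to 8096 CPM in BCSC and 4305 to 5867 CPM in non-BCSC. The 4 leukocyte markers summed to 0.197 to 1.45 CPM and 14.2 to 23.9 CPM, the 3 fibroblast markers to 6.39 to 11.5 and 16.96 to 36.9 CPM, and the 2 endothelial markers on file to 18.5 to 33.8 and 46.8 to 88.2 CPM. The 2 globin genes were at 0 in BCSC and summed to 0.743 to 3.16 CPM in non-BCSC. Olfactory receptor genes, known from the sensory neurons of the nose, summed over 391 genes to 36.95 to 145 CPM in BCSC and 520 to 1180 CPM in non-BCSC. The part of these differences in the histone values was not tested, apart from the values given further on with the olfactory receptor level removed.

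Histone genes were, as a group, at a higher level in BCSC. Of the 64 genes, 49 had enough counts to be tested, 12 were called higher in BCSC and 0 were called lower by edgeR. The 12 are 24.5% of those tested, beside 8.85% of all 20442 genes tested called higher and 11.3% called lower. At an unadjusted p under 0.05, 20 of the 49 histone genes tested were higher, beside 20.8% of all genes, and 0 were lower, beside 22.3%. DESeq2, run on all 49795 genes with any count, called 11 of 62 histone genes higher, beside 3.82% of all genes, and 0 lower. That share takes in many genes of few counts and is not comparable with the 8.85% of edgeR. On the adjusted p of edgeR alone 14 histone genes (28.6% of those tested) were higher, beside 15.3% of all genes, and 0 were lower. All 3 BCSC values lay above all 3 non-BCSC values for 20 histone genes (40.8% of those tested), beside 24.2% of all genes, and below them for 0, beside 27.9%. The log2 fold change was above 0 for 41 of the 49 and its median was 0.73, against -0.05 over all genes tested. Genes of few counts in non-BCSC pass the filter through the group where they are high, so these shares describe the tested genes and not all 64.

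Summed over all 64 genes, histone mRNA took 2927, 2163 and 1982 CPM in the BCSC libraries and 1823, 1312 and 1155 CPM in the non-BCSC libraries. The means were 2357 ± 501 and 1430 ± 349 CPM (SD, n = 3 each), a ratio of 1.65, and the lowest BCSC library lay above the highest non-BCSC library. As a share of all counts this was 0.228% ± 0.0456 and 0.144% ± 0.0315. The level was carried by few genes, since H1-5, H1-2, H1-4 and H3C3 held 42.4% of the histone counts and the 20 most counted genes held 86.0%.

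The classes did not contribute alike. Summed CPM was 1.31 times higher in BCSC for H1, 1.75 times for H2A, 1.89 times for H2B, 2.27 times for H3 and 1.42 times for H4. H1 genes summed to 843 ± 142 CPM in BCSC and 643 ± 128 CPM in non-BCSC, and the highest non-BCSC library, at 791 CPM, lay above the lowest BCSC library, at 729 CPM. H3 genes summed to 669, 471 and 488 CPM in BCSC and 280, 232 and 204 CPM in non-BCSC, with no overlap. H4 genes summed to 109, 83.0 and 64.9 CPM against 92.1, 43.3 and 45.8 CPM, which overlapped. Of all histone counts, H1 therefore took 35.98% ± 1.51 in BCSC and 45.4% ± 3.21 in non-BCSC, and H3 took 23.1% ± 1.45 and 16.9% ± 1.36. For both shares the 3 BCSC libraries did not overlap with the 3 non-BCSC libraries. These shares are of counts and move together, since they add up to the whole.

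**Figure D1:**
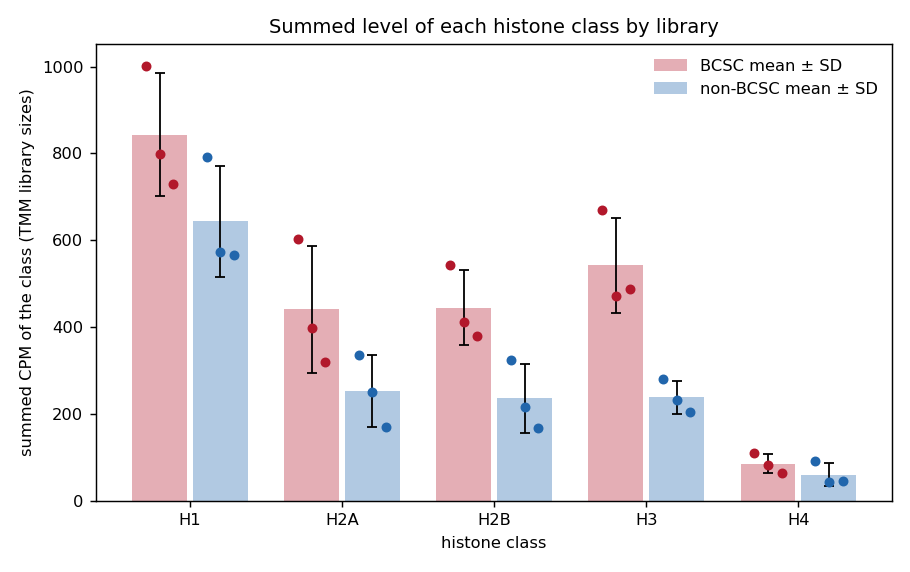
Summed CPM of each histone class, with 1 point per library and bars for the mean ± SD (n = 3 BCSC and 3 non-BCSC libraries). The points of the groups are apart for H2B and H3, whose ratios of means are 1.89 and 2.27, and overlap for H1, H2A and H4.

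Linker histone H1 compacts chromatin, and its somatic subtypes are made by single genes. H1-2 was the one H1 gene called higher. Its level was 392, 288 and 250 CPM in BCSC and 161, 134 and 116 CPM in non-BCSC, a log2 fold change of 1.18 (edgeR adjusted p = 0.00221, SE 0.18). Every BCSC library lay above every non-BCSC library. H1-5, the most counted histone gene, was at 299, 273 and 274 CPM against 283, 224 and 196 CPM, and its groups overlapped (log2 fold change 0.27, adjusted p = 0.158). Over the 15 alternatives described further on, the log2 fold change of H1-5 ran from -0.47 to 0.48. H1-4 was at 240, 169 and 150 CPM against 235, 155 and 178 CPM, with a log2 fold change of -0.02 (adjusted p = 0.947). H1-3 was at 70.2, 68.2 and 54.6 CPM against 111, 59.5 and 76.1 CPM, with a log2 fold change of -0.35 (adjusted p = 0.244). With GC content alone corrected (a fit described further on), H1-4 and H1-3 had log2 fold changes of -0.94 and -0.72 (adjusted p = 0.000225 and 0.0137), and with length corrected as well -0.69 and -0.55 (adjusted p = 0.000929 and 0.0359), all under the 2-fold limit. In the uncorrected values neither H1-4 nor H1-3 separated the groups, and among the 4 subtypes tested H1-2 alone passed. H1-6, the testis subtype, had 0 counts in every BCSC library against 15, 0 and 5, and H1-1 had 0 counts in all 6 libraries.

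Per kilobase of transcript, H1-2 was the most abundant histone mRNA in BCSC, at 424 ± 101 CPM per kb, and the 4th in non-BCSC, at 188 ± 31.0. H1-5 stood 1st in non-BCSC, at 294 ± 55.4 CPM per kb, and 4th in BCSC, at 354 ± 18.8. The 4 genes next to each other at the top in BCSC, H1-2, H3C3, H3C2 and H1-5, differed by less than the SD of H1-2. H3C8 moved from rank 16 in non-BCSC (42.4 ± 19.3 CPM per kb) to rank 6 in BCSC (187 ± 28.4).

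H2A and H2B form dimers, and many of their genes start head to head. Among H2A genes, 14 were tested and 5 were called higher, namely H2AC11, H2AC12, H2AC21, H2AC6 and H2AC8. H2AC8 was at 69.1, 65.5 and 50.9 CPM in BCSC and 39.8, 26.3 and 22.7 CPM in non-BCSC (edgeR adjusted p = 0.00982, log2 fold change 1.06, SE 0.23). H2AC11 was at 73.4, 44.9 and 32.5 CPM against 24.2, 14.8 and 17.6 CPM (1.41, SE 0.31, adjusted p = 0.0105). Both separated the groups, although BCSC replicate 1 was more than 2 times the level of replicate 3 for H2AC11. H2AC21 was at 85.6, 43.6 and 43.0 CPM against 32.3, 26.9 and 16.1 CPM (1.19, adjusted p = 0.0234). It overlaps BOLA1 on the other strand, and whether strand was used in the counting is not given, so reads of the pair may be mixed. H2AC12 was at 29.6, 13.6 and 24.1 CPM against 10.4, 11.3 and 5.47 CPM (1.30, adjusted p = 0.0281). H2AC20, the H2A gene with the highest level, was not called. It was at 111, 65.6 and 47.0 CPM against 75.3, 58.5 and 25.9 CPM (0.48, adjusted p = 0.368), and its groups overlapped.

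H2AC6 needs its transcripts set apart. Summed per gene it was at 82.0, 59.2 and 42.0 CPM in BCSC and 25.5, 31.5 and 28.9 CPM in non-BCSC (edgeR adjusted p = 0.0101, log2 fold change 1.10, SE 0.24). Its spliced transcript H2AC6-201, annotated as a target of nonsense-mediated decay and 1668 bases long, held 1626, 907 and 688 counts in the BCSC libraries, against 68, 45 and 229. The single-exon histone mRNA H2AC6-202, 519 bases long, held 39, 1 and 6, against 241, 230 and 72. Their log2 fold changes were 2.63 and -4.19, and neither passed when transcripts were tested (adjusted p = 0.161 and 0.191). Per kilobase the gene stood at 37.7 and 38.2 CPM in the groups, so its difference in counts did not appear in the level per length. How reads were divided between transcripts is not given, and its part in this pattern was not tested.

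**Figure D2:**
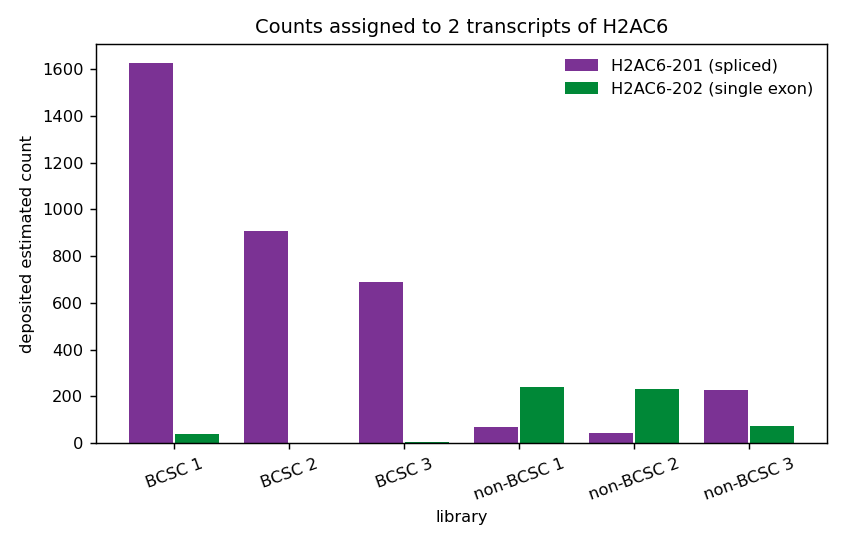
Deposited estimated counts of the spliced (H2AC6-201) and single-exon (H2AC6-202) transcripts of H2AC6 in each of the 6 libraries. In BCSC the spliced form holds 688 to 1626 counts and the single-exon form 1 to 39, while in non-BCSC replicates 1 and 2 the single-exon form is the larger, at 241 and 230 counts.

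Among H2B genes, 13 were tested and 3 were called higher. H2BC21 was at 84.3, 62.8 and 65.9 CPM in BCSC and 41.8, 27.2 and 19.4 CPM in non-BCSC (edgeR adjusted p = 0.00805, log2 fold change 1.27, SE 0.26). H2BC18 was at 105, 73.4 and 65.9 CPM against 48.5, 35.5 and 28.0 CPM (1.12, SE 0.24, adjusted p = 0.00889). H2BC15 was at 70.9, 65.6 and 55.8 CPM against 43.8, 24.9 and 26.9 CPM (1.01, SE 0.23, adjusted p = 0.0115), just past the 2-fold limit. In all 3 genes every BCSC library lay above every non-BCSC library. H2BC18 and H2BC21 share 112 bases at 99.1% identity, and H2BC18 overlaps FCGR1A on the other strand, so some of their reads may be mixed. H2BC12 was at 87.3, 65.3 and 61.9 CPM against 46.5, 38.3 and 24.1 CPM, and at a log2 fold change of 0.98 (adjusted p = 0.0161) it lay just under the 2-fold limit. H2BC10 was at 47.7, 34.2 and 26.4 CPM against 31.5, 23.6 and 17.7 CPM and was not called (0.57, adjusted p = 0.146).

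The annotation held 10 H2A and H2B pairs with starts 170 to 251 bases apart, and both genes were tested in 8. Both log2 fold changes had the same sign in 6 of the 8, and the rank correlation of their values was near 0 (Spearman -0.07 across 8 pairs, as a description). No pair had both genes called. The values were close in H2AC6 and H2BC4, at 1.10 and 0.99, and in H2AC12 and H2BC12, at 1.30 and 0.98. They were farther apart in H2AC20 and H2BC21, at 0.48 and 1.27, and in H2AC11 and H2BC11, at 1.41 and 0.52. The difference within a pair was not tested.

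H3 held the largest changes among the called genes. Of 11 H3 genes tested, 3 were called higher and none lower, and the 3 lie in the same cluster on chromosome 6 and encode the canonical protein H3.1. H3C2 was at 223, 153 and 184 CPM in BCSC and 73.8, 53.8 and 61.9 CPM in non-BCSC, a log2 fold change of 1.56 (edgeR adjusted p = 0.000509, SE 0.17). H3C8 was at 109, 85.2 and 84.0 CPM against 30.9, 20.4 and 11.8 CPM, a change of 2.14 (SE 0.30, adjusted p = 0.00155). The lowest BCSC library was more than 2 times the highest non-BCSC library for both genes. H3C7 was at 19.2, 12.1 and 10.8 CPM against 1.82, 3.18 and 1.44 CPM, a change of 2.70 (SE 0.45, adjusted p = 0.00327) and the largest of all histone genes tested. Its 3 BCSC values rest on 178 to 389 counts, and its non-BCSC values on 15 to 36.

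H3C3 had the highest level of the H3 genes and a smaller difference. It was at 227, 171 and 159 CPM in BCSC and 122, 113 and 86.7 CPM in non-BCSC, with no overlap, and its log2 fold change of 0.79 (edgeR adjusted p = 0.00961, SE 0.17) stayed under the 2-fold limit. H3C13, which encodes H3.2, was at 22.8, 17.9 and 17.7 CPM against 10.7, 11.2 and 14.4 CPM (0.69, adjusted p = 0.0701). H3C4 was at 30.5, 3.59 and 5.32 CPM against 14.7, 9.19 and 6.71 CPM, so its mean in BCSC came from replicate 1. H3C6 stood at 6.75, 8.02 and 10.2 CPM against 4.79, 12.5 and 7.77 CPM, a log2 fold change of -0.0045. H3C14 and H3C15, H3.2 genes that share 518 bases, cannot be told apart by reads within them, and H3C15, with 36, 11 and 18 counts against 4, 0 and 0, was not tested.

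H4, a single protein made from many genes, held no called gene among 7 tested by edgeR, and 1 of the 7 was higher at an unadjusted p under 0.05. H4C5, the H4 gene with the highest mean CPM, was at 29.9, 22.2 and 17.5 CPM in BCSC and 36.1, 18.3 and 25.1 CPM in non-BCSC, with a log2 fold change of -0.19 (edgeR adjusted p = 0.650). H4C4 was at 43.3, 27.7 and 21.3 CPM against 28.1, 9.10 and 10.1 CPM (0.96, adjusted p = 0.124). H4C3 was at 13.4, 7.89 and 5.56 CPM against 4.87, 3.62 and 2.88 CPM, and it alone among the H4 genes tested separated the groups (1.24, SE 0.47, adjusted p = 0.0701). H4C8 was at 13.5, 14.9 and 7.92 CPM against 12.1, 9.45 and 4.03 CPM (0.50, adjusted p = 0.414). H4C1 was at 3.40, 4.11 and 6.59 CPM against 5.28, 0.530 and 0.767 CPM (1.09, adjusted p = 0.365). The median log2 fold change was 0.96 for H4 and 0.69 for H3, while the SEs ran from 0.30 to 1.20 for H4 and from 0.17 to 1.07 for H3. Whether the classes differ from each other was not tested.

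**Figure D3:**
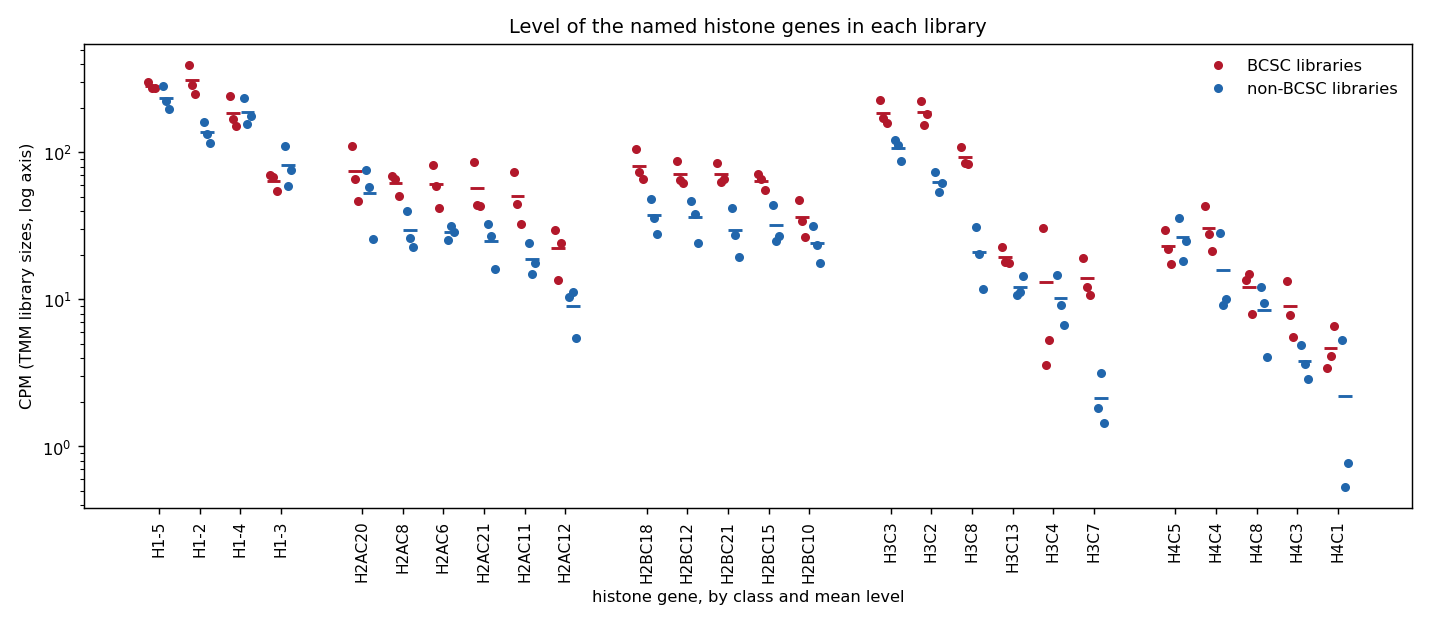
CPM on a log axis of the histone genes with the highest levels and of further called genes, in BCSC (red) and non-BCSC (blue), with 1 point per library and a line at each group's mean (n = 3). The groups are apart for H1-2, H3C2, H3C8 and H3C7, and mixed for H1-3, H1-4, H2AC20 and H4C5.

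The remaining tested genes were not called. Of those not named above, H2AC4 had the largest log2 fold change (1.74, SE 0.86), from 202, 58 and 72 counts against 24, 2 and 34, followed by H2BC13 (1.44, adjusted p = 0.0850). H2BC4 lay at 0.99 with an edgeR adjusted p of 0.0502, on the threshold in both measures. The lowest value was that of H3C12 (-0.41, SE 1.07), which has 3 to 20 counts per library and shares 346 bases with H2AC17. These genes fall outside the rule for named genes, as do H3C6, H3C14, H3C15 and H2BC11 above. The 15 genes that were not tested had at most 36 counts in any library. They include H1-6, H2AC1 and H2BC1, which are known for expression in testis, and 2 of them, H1-1 and H3C11, had 0 counts in all libraries.

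**Figure D4:**
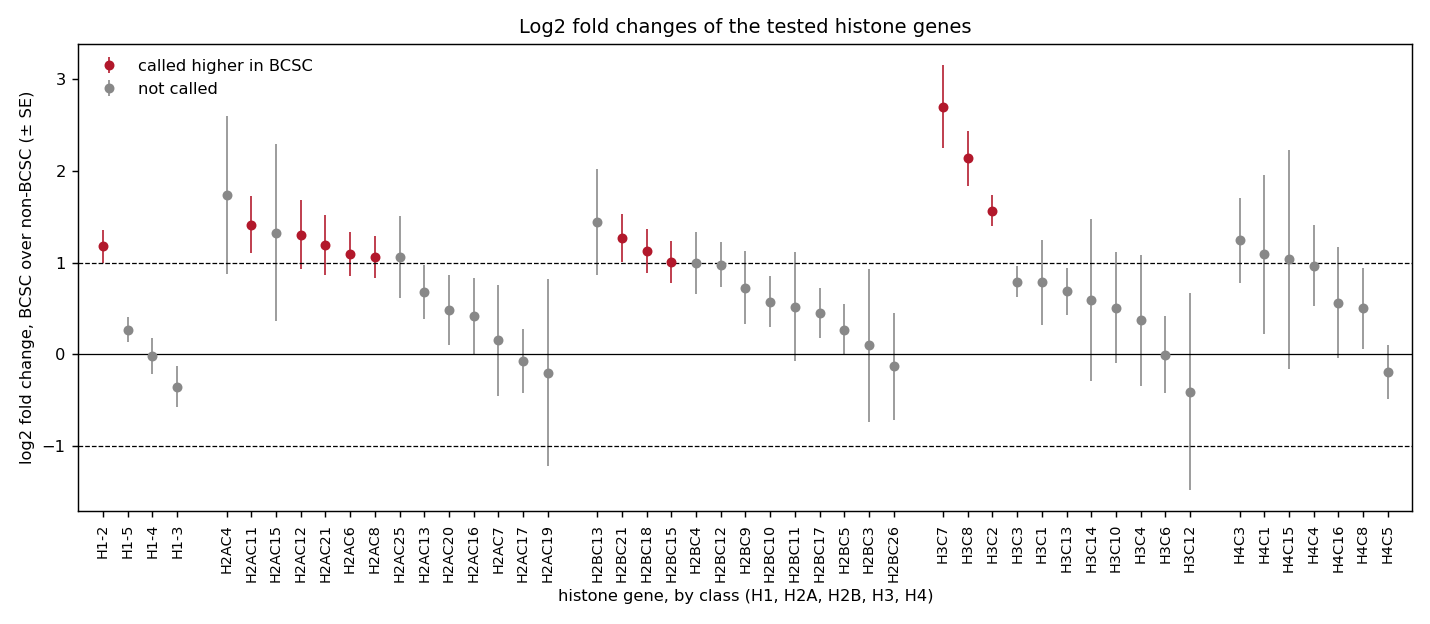
Log2 fold change (BCSC over non-BCSC) with its SE for the 49 tested histone genes, ordered by size within each class, with called genes in red and dashed lines at the 2-fold limits. The 12 called genes all lie above the upper line, and H3C7, H3C8 and H3C2 are the highest called values.

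By position, called genes occurred in each of the larger clusters. The cluster at chr6:25723625-26285866 (GRCh37) held 30 genes, of which 24 were tested and 6 called higher (H1-2, H2AC6, H2AC8, H3C2, H3C7 and H3C8), with a median log2 fold change of 0.79. The small group at chr6:27093676-27115341 had 4 genes tested and 2 called, with a median of 1.14. The cluster at chr6:27775257-27861669 had 10 tested and 1 called (H2BC15), with a median of 0.48. On chromosome 1, at chr1:149754245-149859515, 8 were tested and 3 called (H2AC21, H2BC18 and H2BC21), with a median of 0.86. The pair at chr1:228622478-228650805 and H4C16 on chromosome 12 held no called gene.

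The genes that make and remove histone mRNA were taken from fixed lists, and their counts are to be read beside the 8.85% of all genes called higher. Of 18 genes for transcription and 3′ end processing, 16 were tested and 1 was called higher. This was CRAMP1, known from work on H1 gene transcription, at 33.2, 22.1 and 23.1 CPM in BCSC and 5.69, 9.28 and 1.73 CPM in non-BCSC (edgeR adjusted p = 0.0110, log2 fold change 2.23, SE 0.50). SLBP, which binds the stem-loop shown above, was at 76.5, 83.1 and 72.2 CPM against 76.2, 70.1 and 63.5 CPM, overlapping and not called (0.14, adjusted p = 0.437). NPAT, the activator of histone gene transcription at the G1/S transition, was at 98.9, 120 and 120 CPM against 78.1, 66.2 and 78.7 CPM (0.61, adjusted p = 0.0103), without overlap but under the 2-fold limit. SLBP and NPAT are named here outside the rule, because of these roles. Of 10 genes for the decay and translation of histone mRNA, 1 was called. This was UPF1, the helicase recruited when histone mRNA is degraded, at 88.8, 54.5 and 44.5 CPM against 21.3, 17.7 and 19.9 CPM (1.67, SE 0.26, adjusted p = 0.00235).

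Replication-independent variants, which are made outside S phase as well, gave 2 called of 10 tested. MACROH2A1, a variant with a large extra domain, was at 485, 479 and 432 CPM against 214, 228 and 207 CPM (edgeR adjusted p = 0.000174, log2 fold change 1.11, SE 0.10). H2AX, the variant phosphorylated at DNA breaks, was at 71.5, 44.8 and 47.8 CPM against 20.1, 11.1 and 15.9 CPM (1.80, SE 0.27, adjusted p = 0.00210). The genes of the listed variants H2BU1 and H2AW were not matched by symbol. Of 19 histone chaperones, all tested, 2 were called higher. CHAF1A, a subunit of the assembly factor CAF-1, was at 74.6, 45.3 and 49.3 CPM against 29.4, 23.3 and 22.0 CPM (1.18, adjusted p = 0.00618). ASF1B, which hands H3 and H4 to it, was at 42.2, 42.1 and 30.1 CPM against 22.8, 13.7 and 13.8 CPM (1.18, adjusted p = 0.0107). On the adjusted p alone 5 of the 19 chaperones were higher and 3 lower, beside 15.3% of all genes higher and 2978 of 20442 lower. Among the lower was NASP, which binds H3 and H4 before assembly (-0.59, adjusted p = 0.00360, named outside the rule).

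S phase genes had the largest share of calls among these lists, with 5 of 21 called higher and a median log2 fold change of 0.65. On the adjusted p alone 13 of the 21 were higher and 1 lower, beside 15.3% of all genes higher and 2978 of 20442 lower. CDK2, the kinase that works with cyclin E, was at 104, 103 and 91.1 CPM against 36.6, 31.1 and 28.3 CPM (1.63, SE 0.15, edgeR adjusted p = 0.000230). MCM2, of the replicative helicase, was at 158, 115 and 95.6 CPM against 62.9, 31.1 and 51.5 CPM (1.34, adjusted p = 0.00635). UNG, which removes uracil from DNA, was at 51.0, 43.2 and 35.1 CPM against 17.7, 15.2 and 8.25 CPM (1.65, adjusted p = 0.00427). E2F1, a transcription factor of S phase entry, was at 37.9, 19.8 and 17.9 CPM against 9.74, 5.21 and 4.99 CPM (1.92, adjusted p = 0.00782). CDT1, which loads the helicase, was at 16.6, 8.28 and 6.89 CPM against 3.80, 4.86 and 2.40 CPM (1.52, adjusted p = 0.0385). None of the companion genes in the 5 lists was called lower in this fit. With the olfactory receptor level removed, as described further on, 1 was called lower, the chaperone NAP1L1. In the main fit NAP1L1 had a log2 fold change of -0.79 (edgeR adjusted p = 0.00138, named outside the rule). The replicative clamp PCNA was at 217, 217 and 206 CPM against 204, 201 and 203 CPM (0.08, adjusted p = 0.556) and MCM3, of the same helicase as MCM2, was lower on the adjusted p alone (-0.59, adjusted p = 0.0116). PCNA and MCM3 were picked after their values were seen.

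Fold changes ran with base composition across all genes tested, and the histone genes have a high GC content. Their transcripts have a median GC content of 57.6%, against 46.2% over all genes tested. Each gene's GC content was the plain mean over its transcripts on file, also those without counts. Across all genes the log2 fold change ran with GC content (rank correlation 0.55, as a description). Between 57 and 60% GC, 1323 other genes had a median log2 fold change of 0.996 and the 17 histone genes one of 0.98. Between 54 and 57% the medians were 0.69 for 1517 other genes and 0.96 for 11 histone genes, and between 60 and 63% they were 1.12 for 1030 other genes and 0.51 for 5 histone genes. Between 51 and 54% they were 0.36 for 1754 other genes and 0.27 for 5 histone genes. Between 63 and 66% they were 1.33 for 527 other genes and 0.59 for 3 histone genes. Other genes had -0.17 from 45 to 48% and 0.04 from 48 to 51%, where histone genes had 1.10 and 0.52. The histone median was therefore above that of other genes from 45 to 51% and from 54 to 57%. It was below from 51 to 54% and from 57 to 66%, though only slightly between 57 and 60%. Against the middle 50% of other genes in the same step of GC content, 11 histone genes lay above, 27 inside and 11 below. Of the 12 called genes, 7 lay above, but where a gene falls depends on its annotated transcripts. H2BC15 was placed at 50.3% GC and H2BC18 at 49.6%, though 88.2% and 93.7% of their counts lay in a single-exon transcript. H2BC21 was placed at 47.9%, with the bases past its hairpin included. Where these genes fall by their counted transcripts alone was not tested. Among the histone genes themselves the rank correlation with GC was 0.02 (n = 49).

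**Figure D5:**
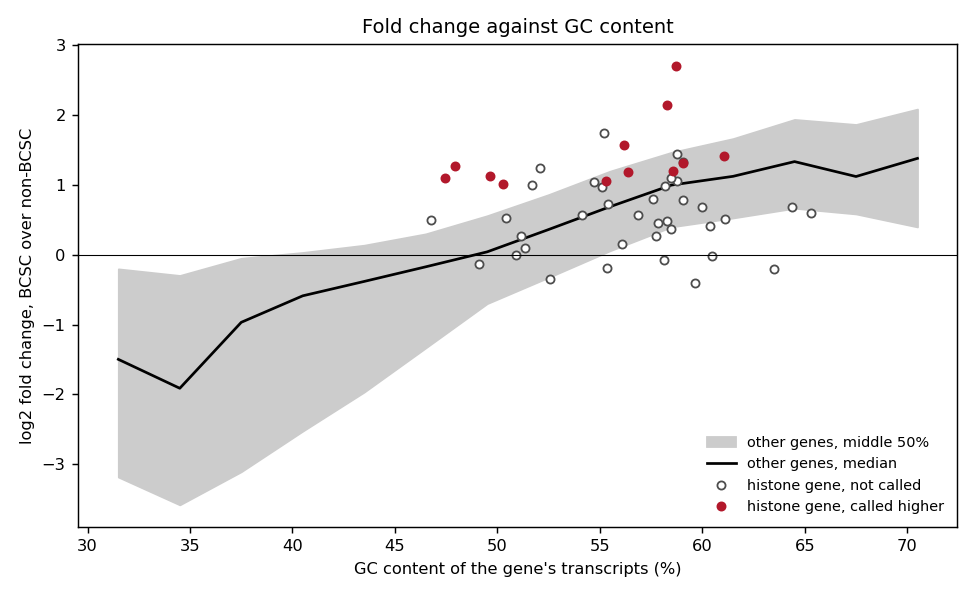
Log2 fold change (BCSC over non-BCSC) against the GC content of a gene's transcripts, with the median (line) and middle 50% (grey) of other genes in steps of 3% and 1 point per tested histone gene. The median of other genes increases with GC content from 33 to 66%, 27 of the 49 histone genes lie within the grey band, and H3C7, H3C8, H3C2, H2BC15, H2BC18, H2BC21 and H2AC6 are the called genes above it.

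With GC content and length corrected in each library, 6 histone genes were called higher (H2AC6, H2BC18, H2BC21, H3C2, H3C7 and H3C8), beside 3.56% of all genes, and the median was 0.38. Over all genes this correction left 727 higher and 2236 lower, against 1810 and 2307 without it. The rank correlation of log2 fold change with GC content over all genes was 0.26 after it and 0.55 before. With GC content alone corrected, 4 were called (H2AC6, H2BC21, H3C7 and H3C8), beside 3.52% of all genes, and the median was 0.15. The rank correlation was then 0.25, so neither correction removed the trend with GC content. Both used each gene's mean GC content over its transcripts. Of the 11 companion genes called, 2 (CDK2 and UNG) kept their call under either correction. With the olfactory receptor level removed as a background per kilobase, 5 of the 49 tested were called (H2AC11, H2BC21, H3C2, H3C7 and H3C8), and the median was 0.73. Of all genes 10.8% were then called higher, so the share of histone genes called did not stand above that of all genes. Without BCSC replicate 1, the deepest library, the same 5 genes were called, beside 4.05% of all genes. H2BC21, H3C7 and H3C8 were called under all 15 alternatives run on gene sums, and no histone gene was called lower, at the 2-fold limit, under any of those that kept this limit. Whether GC content, the background or the sort gives rise to the differences was not tested.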

How the data were processed

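Estimated counts per transcript, in whole numbers and not normalized, were deposited by the authors for 6 libraries. The authors trimmed adapters and aligned reads with HISAT2 to hg19, while the submitters' processing notes name hg38. The counting step, its use of strand and the annotation release are not given in the sources used here. By identifier, 249787 of 252618 transcripts (98.9%, 99.7% of counts) matched GENCODE on GRCh37, and counts were summed per gene. The authors' own comparisons were not used.

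The gene sums went into a quasi-likelihood test (edgeR 4.0.16 under R 4.3.3, robust, TMM scaling, filterByExpr, no covariates), two-sided, with Benjamini-Hochberg adjustment over 20442 genes. The script was tested on simulated data. Values are means ± SD (n = 3). CPM per kb divides each transcript's CPM by its length before summing. Named were, per class, the 5 genes with the highest mean CPM and up to 5 further called genes by p, and every called companion gene. The members and lists were chosen with earlier results of these data known. Shared sequence was searched with BLAST+ 2.17.0 at 98% identity. Alternatives were RLE factors, DESeq2 1.42.0, other filters, a replicate block, each library left out, no fold limit, transcripts as deposited, loess corrections (span 0.3) for GC content with and without length, and removal of the olfactory receptor level. GC content alone was added after the data were seen. Libraries of a group differed beyond counting error (chi-square per degree of freedom 15.2 to 42.1), so none was a duplicate. One marker gene is not reported here.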

Additional observations from a re-analysis of the deposited data

How the results depend on the processing

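The count of 12 histone genes called higher was between 10 and 17 with RLE size factors, with DESeq2, without a filter on low counts, with a replicate block and with no minimum fold. In these fits 3.82 to 15.3% of all genes were called higher. The histone count was 8 of 42 tested, beside 10.5% of all genes, where each library had to hold 10 counts of a gene. No histone gene was lower in each case. The count was 6 with GC content and length corrected, beside 3.56% of all genes. With GC content alone corrected (an alternative chosen after seeing the data) it was 4, beside 3.52%. With the olfactory receptor level removed it was 5, beside 10.8%. It ran from 5 to 19 with each library left out in turn, beside 4.05 to 9.29% of all genes. It was 5 of 50 tested without BCSC replicate 1, beside 4.05% of all genes. Without non-BCSC replicate 1 it was 19 of 51, beside 9.29%, and without non-BCSC replicate 3 it was 7 of 51, beside 6.74%. With transcripts as deposited, 56 histone transcripts were tested by edgeR and 0 were called (smallest adjusted p = 0.0514). At an unadjusted p under 0.05 with a 2-fold change, 13 were higher and 1 lower. The share of all transcripts past that limit is not given, so these 2 counts are not read as a result about histone transcripts. The median log2 fold change of histone genes was 0.38 to 1.07 under the other alternatives and 0.15 with GC content alone corrected. Over all genes, 1810 were called higher and 2307 lower, against 720 higher with GC content alone corrected, 959 higher and 1198 lower without BCSC replicate 1, 1902 and 4771 with DESeq2, and 1081 lower with the background removed. RLE size factors moved the median of all genes from -0.05 to -0.14. The ratio of summed CPM ran from 1.45 to 1.92 on values not corrected for GC content, and its value under the GC corrections is not given. The 11 companion genes called became 31 with no minimum fold (26 higher and 5 lower) and 2 with either GC correction. With the olfactory receptor level removed, 8 companion genes were called higher and 1 lower. Without a given library the companion genes called numbered 9 to 14. The direction of no called histone gene turned under any alternative run on gene sums. Genes that were not called could turn, such as H1-5 (from -0.47 to 0.48), H2AC20 (from -0.36 to 0.87) and H4C5 (from -0.80 to 0.15). With transcripts as deposited, the single-exon transcript H2AC6-202 of the called gene H2AC6 had a log2 fold change of -4.19 (edgeR adjusted p = 0.191).

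Same-numbered libraries of the groups deviated together with correlations of 0.18, 0.014 and 0.22, BCSC replicate 2 was closest to non-BCSC replicate 1, and the numbers were not taken to pair the samples. The fit with a replicate block called 17 histone genes higher, the 12 and H2BC12, H2BC13, H2BC4, H4C3 and H4C4, beside 9.75% of all genes. The depth limits genes of low counts, such as H3C12 and H4C15, whose standard errors were 1.07 and 1.20 on the log2 scale. The causes of these shifts were not tested.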
